A study of Mus musculus with 16 samples.

Results

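The 4 ileal libraries of RNA-Seq of GFP+ cells compared mice after vertical sleeve gastrectomy (VSG), an operation that removes most of the stomach along its greater curvature, with mice after sham surgery. They are 4 of the 16 libraries used from 7 mice, beside 6 from the duodenum and 6 from the jejunum. All mice were female Lgr5-EGFP mice, in which enhanced green fluorescent protein is made from the intestinal stem cell gene Lgr5, so controls carry the same allele. All received 60% HFD, a high-fat diet, over 16 weeks before the operation, and were fasted overnight 4 weeks later and given a liquid meal 15 minutes before 6 cm of each segment was taken. Dissociated epithelial cells were depleted of CD45+, CD31+, annexin V+ and dead cells and sorted by GFP. Each ileal library is 1 mouse, with 2 after VSG (VSG libraries 1 and 2) and 2 after sham surgery (sham libraries 1 and 2), and no mouse is in both groups. Further ileal libraries of both surgeries had been left out by the authors for low mapping. The mapping limit for leaving a library out was lower in the ileum than in the other segments. The genes described are the 7374 of 48440 listed above 0 in all 4 libraries with a mean normalized count above 50, so that a value of 0 does not set a result. A transcript that is nearly lost from a library, at a value just above 0, still passes and can give a large fold change.

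The ileum is the last part of the small intestine, and its enterocytes take up bile acids that return to the liver. Slc10a2 carries bile acids in from the lumen, Fabp6 binds them in the cytosol, the Slc51a and Slc51b pair passes them out to the blood, and the nuclear receptor FXR (Nr1h4) senses them and drives genes such as Fgf15. Lgr5 marks the crypt base stem cells that renew the epithelium, and their daughters become absorptive enterocytes or goblet, Paneth, enteroendocrine and tuft cells.

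Most regional markers, though not all, were those of the ileum. Fabp6 took 3307 and 1327 of each 1000000 normalized counts after VSG and 8350.0 and 6024 after sham surgery, while its highest duodenal level was 1.81 per 1000000. Pdx1, a duodenal transcription factor, and Cybrd1, a duodenal iron reductase, were listed at 0 in all 4 libraries, as in most jejunal ones. Lct, the lactase of the proximal intestine, was not low: it had 79.0 and 802 per 1000000 after VSG and 169 and 396 after sham surgery, where the duodenal median was 433 and the jejunal 829.8. Gata4, a factor of the proximal intestine, had 46.2 and 42.8 after VSG and 20.4 and 0 after sham surgery, below the lowest duodenal level of 150.3 in every library and higher in both VSG libraries. The stem cell label was not borne out to the same degree. Lgr5 had 65.5 and 41.0 normalized counts per kilobase of exon after VSG and 0 and 14.8 after sham surgery, and the stem cell factor Ascl2 was listed at 0 in both sham libraries. Per 1000000, Lgr5 had 30.6 and 19.1 after VSG and 0 and 6.75 after sham surgery, where the duodenal median was 33.6 and the jejunal 16.7. The stem cell gene Olfm4 had 2580 and 1807 per kilobase after VSG and 268.5 and 893.5 after sham surgery. On the same scale the enterocyte apolipoprotein Apoa1 had 49060.0 or more in every library and the differentiation keratin Krt20 had 15970.0 or more. The enterocyte gene Fabp1 lay lower, at 5057 and 10700 after VSG and 4568 and 3378 after sham surgery. Paneth and goblet transcripts were also plentiful. The Paneth gene Defa24 had 56590 and 10400 after VSG and 1559 and 17630 after sham surgery. The goblet gene Tff3 had 39360 and 8674 after VSG and 7985 and 17130 after sham surgery. The libraries are therefore described as those of GFP+ sorted ileal cells, with many enterocyte transcripts beside Paneth and goblet ones. In bulk RNA, fewer cells of a type and less RNA per cell cannot be told apart. Of 27 immune genes in the table, 20 were listed at 0 in all 4 libraries, among them Cd3e, Cd8a, Cd79a and Csf1r, and their summed level was 21.1 and 22.9 per 1000000 after VSG and 23.4 and 5.47 after sham surgery. The 22 stroma and vessel genes summed to 27.9 and 94.0 per 1000000 after VSG and 69.8 and 45.9 after sham surgery.

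Depth differed between the surgeries. What 1 read was worth gives 36.4 and 32 M implied reads (M, 1000000) in the VSG libraries and 21.5 and 10.9 M in the sham libraries. The plot of implied reads per gene shows that genes above 0 lay in 2 clusters, 1 at 1 to 5 reads and 1 far above it, with a dip between. Of the 11531 genes with a mean above 50, 4157 (36.1%) were listed at 0 in at least 1 library. Genes at 0 in a single library numbered 32 and 520 in VSG libraries 1 and 2 and 718 and 736 in sham libraries 1 and 2. Such losses were thus most frequent in the 2 sham libraries, which were also the shallower ones. The 7374 genes kept held 94.2% to 96.7% of each library's total. The kept genes of 2 libraries of the same surgery were about as far apart as those of different surgeries: the median absolute log2 difference was 0.75 between the VSG libraries, 0.88 between the sham libraries and 0.75 to 0.87 across surgeries.

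**Figure D1:**
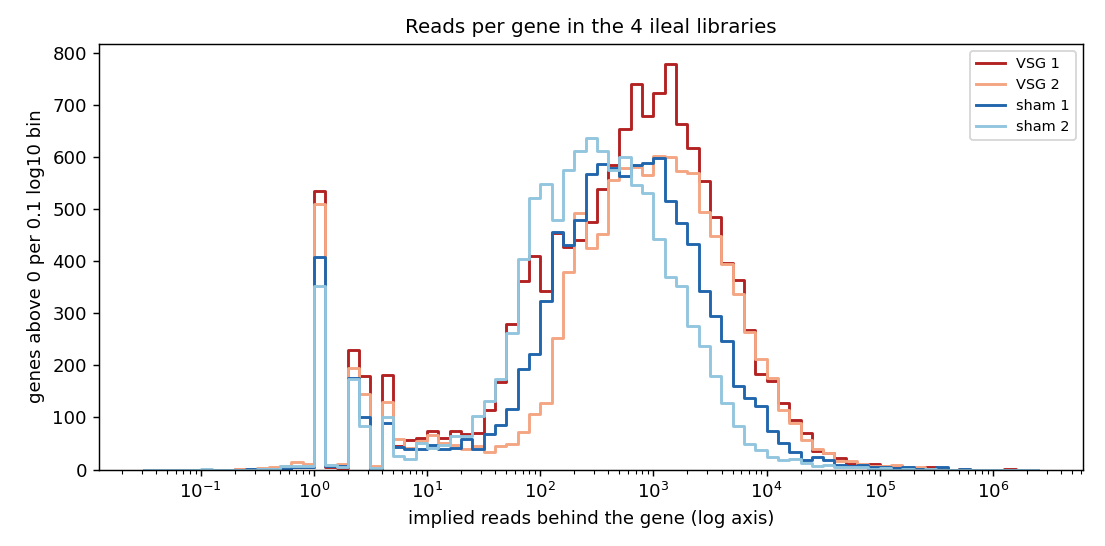
Number of genes above 0 (vertical axis, per 0.1 log10 bin) by the implied reads behind them (horizontal log axis) in the 4 ileal libraries. Every library has a narrow cluster at 1 to 5 reads and a broad one far to its right, which lies furthest left in sham library 2, the shallowest at 10.9 M implied reads.

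Only 2 genes passed the thresholds (p under 0.05, adjusted p under 0.2 and an absolute log2 fold change above 0.5; limma with Benjamini-Hochberg adjustment over the 7374 genes), which is 0.0271% of those tested, and both rose after VSG. Aacs (chromosome 5, 125475814 to 125517410, plus strand), the enzyme that activates the ketone body acetoacetate for lipid synthesis, had 16861 and 7114 after VSG and 239.7 and 137 after sham surgery. Both VSG libraries were above both sham libraries, with a log2 fold change of 5.91 (SE 0.73, adjusted p = 0.15). The other, Gm10925 (chromosome 1, 24613974 to 24614651, minus strand), is annotated as an unprocessed pseudogene and named here after its values were seen. Its counts were 49013 and 88425 after VSG and 873 and 2350.4 after sham surgery (log2 fold change 5.52, SE 0.57, adjusted p = 0.0799), and reads shared with near-identical copies make its level uncertain. With 1 library left out, 1 arm is a single mouse whose spread is taken to be that of the other arm, so calls are lost easily. Leaving out any 1 library ended the Aacs call (adjusted p = 0.214 without sham library 2, 0.282 without sham library 1, 0.877 without VSG library 1 and 1.000 without VSG library 2). The Gm10925 call held without sham library 2 (adjusted p = 0.0665) and ended without sham library 1 (0.282), VSG library 1 (0.224) or VSG library 2 (1.000). No other gene had an adjusted p below 0.541, so no further gene below passed the test, and each is described by its libraries, its log2 fold change and its SE. P-values rest on the spread between these mice, 1 library each, which limma moderates toward that of genes of similar level. With 2 against 2 an exact permutation test of a single value cannot go below 0.333.

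At an unadjusted p under 0.05 stood 335 genes (4.54%), fewer than the 369 that 5% of 7374 would give, with 165 higher (2.24%) and 170 lower (2.31%) after VSG. Both VSG libraries lay above both sham libraries in 1260 genes (17.1%) and below them in 1259 (17.1%). The median log2 fold change over all genes was 0.02, and 51.3% of genes were higher after VSG. With each library scaled to the same total, the median moved to 0.15 and the split at an unadjusted p under 0.05 moved to 208 higher and 129 lower, so small differences depend on the scaling. With values of 0 allowed and a mean above 50, the median was 0.14 and the split was 386 higher and 183 lower. The plot of the 7374 genes shows a narrow band of differences at the abundant end, from which Fabp6 and Sprr2a2 stand out.

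By normalized count, not corrected for length, the 10 most abundant named genes were Rn18s-rs5, which carries ribosomal RNA, mt-Co1, mt-Atp6, mt-Co2, mt-Cytb and mt-Nd4 of the mitochondrial genome, Anpep, Reg3b, Actb and Sprr2a2. Rn18s-rs5 had 907255 and 239490.0 after VSG and 412915 and 530530.0 after sham surgery (log2 fold change -0.0059, SE 0.57), with VSG library 1 highest and VSG library 2 lowest. The cytoskeletal actin Actb had 207016 and 146355 in the sham libraries and 133552 and 79545 in the VSG libraries (log2 fold change -0.76, SE 0.38), with no overlap.

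**Figure D2:**
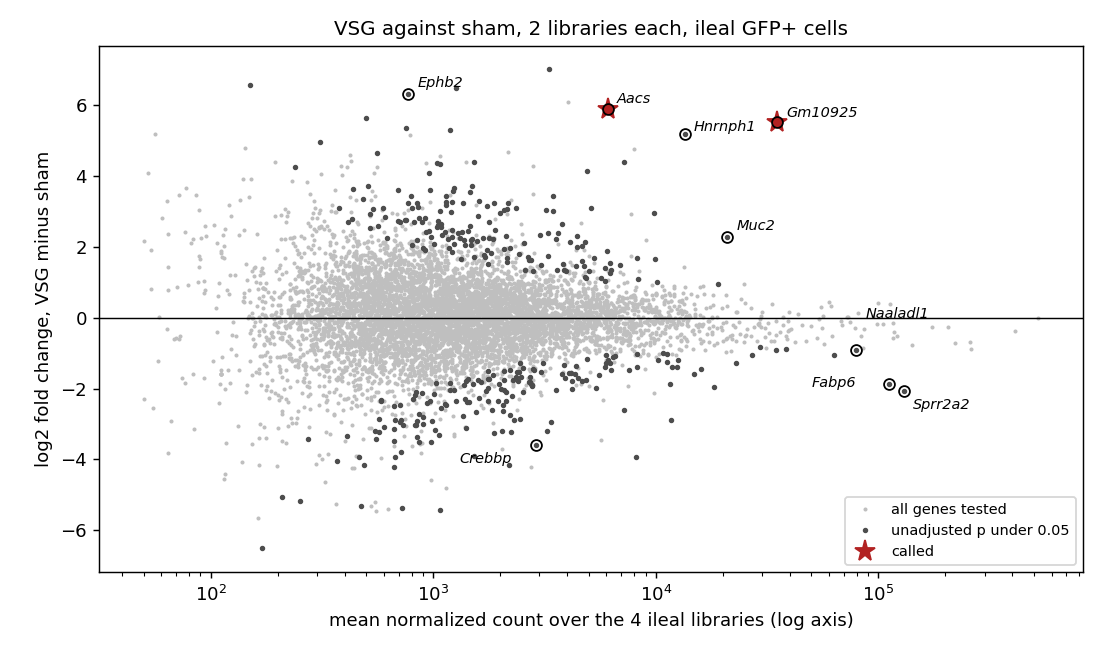
Log2 fold change (vertical axis, VSG minus sham, 2 libraries each) against the mean normalized count over the 4 libraries (horizontal log axis) for the 7374 genes. Dark points have an unadjusted p under 0.05, stars are the 2 called genes and open circles mark labelled genes. Fabp6 and Sprr2a2 lie furthest below 0 at the abundant end, at -1.87 and -2.07.

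Genes of bile acid transport were mostly lower after VSG, with Fabp6 and Slc10a2 at log2 fold changes of -1.87 and -1.88. Of 23 genes of bile acid transport, bile acid sensing and cobalamin uptake, 17 were tested, 4 were listed at 0 in all libraries and 2 at 0 in some. Among the 17, 11 were lower and 6 higher after VSG (median log2 fold change -0.50). In 7 both VSG libraries lay below both sham libraries, where 17.1% of all genes did, and in 1, the transcription factor Gata6, they lay above. Fabp6, Slc10a2 and Cubn had an unadjusted p under 0.05, all lower, where 2.31% of all genes did. Relative to its own mean over the libraries, the median member stood at -0.28 and -0.14 on the log2 scale after VSG and 0.37 and 0.11 after sham surgery, and the median was -0.72 to -0.23 without any 1 library. Gata4, the proximal factor, stood the other way, at 46.2 and 42.8 per 1000000 after VSG and 20.4 and 0 after sham surgery, whereas Lct was both lowest and highest in VSG libraries. The part of the position sampled along the ileum in these values was not tested.

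Fabp6 (chromosome 11, 43596049 to 43601540, minus strand) encodes the ileal bile acid binding protein. It had 208801 and 135504 in the sham libraries and 72740.3 and 29162 in the VSG libraries, with no overlap (log2 fold change -1.87, SE 0.48, adjusted p = 0.929). Without any 1 library the log2 fold change stayed between -2.53 and -1.21. Slc10a2 (chromosome 8, 5083219 to 5105351, minus strand), the apical sodium-dependent bile acid transporter, had 14638 and 21054 in the sham libraries and 7794 and 2931 in the VSG libraries (log2 fold change -1.88, SE 0.54, adjusted p = 0.929). VSG library 2 was the lowest for both genes. The basolateral transporter subunits differed less. Slc51a had 31750.1 and 31172 in the sham libraries and 21684 and 22482 in the VSG libraries (log2 fold change -0.51, SE 0.34), and its partner Slc51b had 10641 and 6504 in the sham libraries and 4718 and 3678 in the VSG libraries (log2 fold change -1.0, SE 0.47). For both subunits the VSG libraries were the lower pair, with no overlap.

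Fgf15, the FXR target that ileal cells secrete to restrain hepatic bile acid synthesis, had 4864 and 5608 in the sham libraries and 2483 and 3119 in the VSG libraries (log2 fold change -0.91, SE 0.48, adjusted p = 0.929). Both VSG libraries were below both sham libraries. Receptor genes differed less. Nr1h4, which encodes FXR, had 5472 and 3790.5 in the sham libraries and 4657 and 2227 in the VSG libraries (log2 fold change -0.50, SE 0.55), and the VSG and sham libraries overlapped. Nr1i2, the xenobiotic and bile acid receptor PXR, had 3249 and 3698 in the sham libraries and 2765 and 1399.9 in the VSG libraries with no overlap (log2 fold change -0.82, SE 0.57). Vdr and Rxra, the vitamin D receptor and the common dimer partner of these receptors, differed by 0.23 and 0.0080. Cubn (chromosome 2, 13276338 to 13491813, minus strand), the ileal receptor for cobalamin bound to intrinsic factor, had 26696 and 37583 in the sham libraries and 9764 and 17509 in the VSG libraries (log2 fold change -1.28, SE 0.42, adjusted p = 0.929). Its partner Amn had 7292 and 3520.4 in the sham libraries and 4136 and 4172 in the VSG libraries and overlapped (log2 fold change -0.29, SE 0.52). The transcription factor gene Gata6 went the other way at 1962 and 2117 after VSG and 1023 and 1098 after sham surgery (log2 fold change 0.94, SE 0.62). Nr0b2, Abcb11, Gpbar1, Lrp2, Abcc4 and Gata4 were not tested because of values at 0.

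**Figure D3:**
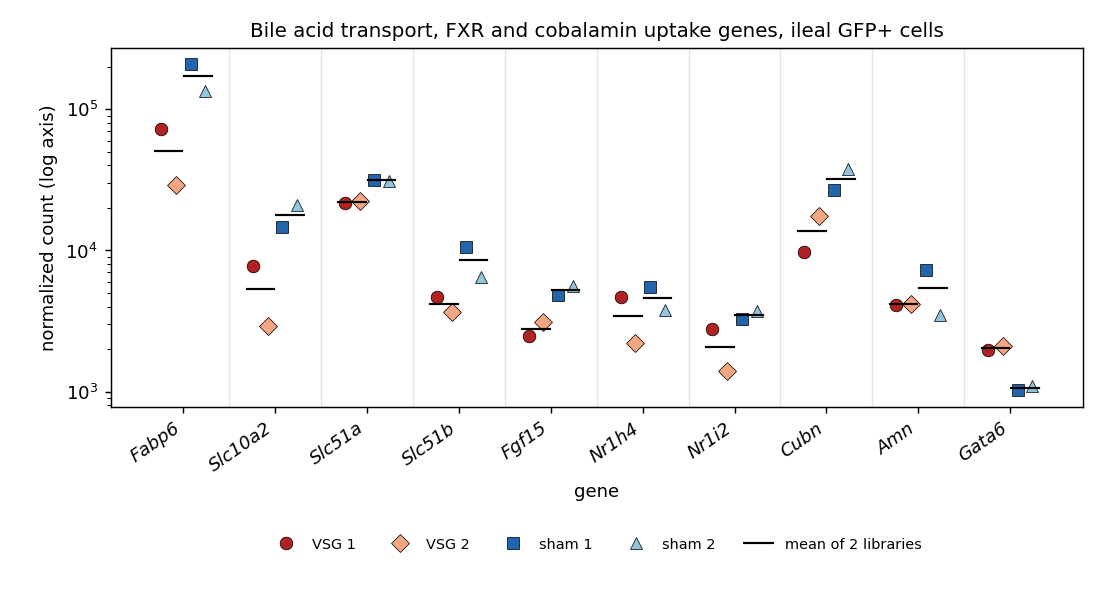
Normalized count per library (vertical log axis) of 10 genes of bile acid transport, FXR and cobalamin uptake in ileal GFP+ cells; each symbol is 1 library and each line the mean of 2. Both VSG symbols lie below both sham symbols for Fabp6, Slc10a2, Slc51a, Slc51b, Fgf15, Nr1i2 and Cubn, and above them for Gata6.

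Start regions of 2 of these genes are shown because they hold stretches that resemble an element FXR is known to bind. The element is 2 copies of AGGTCA facing each other with any 1 base between them (IR-1). Neither window holds it without mismatches. Windows of 250 bases before to 50 after each gene start were taken from RefSeq on GRCm38.p6 and searched on both strands with up to 2 mismatches. Capitals mark the matches.
Fabp6 (chr11:43601513-43601812, minus strand): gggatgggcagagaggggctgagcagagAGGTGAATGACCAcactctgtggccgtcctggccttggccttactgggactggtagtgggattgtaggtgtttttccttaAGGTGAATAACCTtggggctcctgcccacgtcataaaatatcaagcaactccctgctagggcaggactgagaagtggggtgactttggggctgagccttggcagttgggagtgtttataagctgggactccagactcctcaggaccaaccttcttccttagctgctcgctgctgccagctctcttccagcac
Cubn (chr2:13491827-13492126, minus strand): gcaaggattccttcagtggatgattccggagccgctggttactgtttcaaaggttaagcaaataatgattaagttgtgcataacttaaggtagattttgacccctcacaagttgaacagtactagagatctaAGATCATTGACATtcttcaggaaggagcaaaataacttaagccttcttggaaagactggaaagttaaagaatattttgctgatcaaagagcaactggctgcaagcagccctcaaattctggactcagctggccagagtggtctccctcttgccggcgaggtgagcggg
The Fabp6 window held 2 matches and the Cubn window 1, each with 2 mismatches, the most allowed. The closest match among the listed genes, with 1 mismatch, was in the Abcb11 window. Of the 21 windows found for 19 of the 23 listed genes, 4 held a match, the others being Nr1i3 and Abcb11, beside 374 of all 32851 windows (1.14%). Slc10a2, Slc51a and Slc51b had none in these 300 bases. A match is a description of letters, and binding was not measured.

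Brush border and digestive enzyme genes were also mostly lower. Of 28 genes, 25 were tested, 21 lower and 4 higher after VSG (median -0.52), and in 10 both VSG libraries lay below both sham libraries, against 17.1% of all genes, while in none did they lie above. Naaladl1, a brush border peptidase, had 91952 and 115662 in the sham libraries and 52447 and 57597 in the VSG libraries (log2 fold change -0.91, SE 0.32, adjusted p = 0.929). Cdhr2, the cadherin that links microvilli, had 44745 and 45252 in the sham libraries and 20128 and 28178 in the VSG libraries (log2 fold change -0.92, SE 0.35), and Ggt1, the gamma-glutamyl transferase, had 16656 and 13335 in the sham libraries and 6342 and 8526 in the VSG libraries (log2 fold change -1.02, SE 0.40). In all 3 the sham libraries were the higher pair. The aminopeptidase Anpep, among the 10 most abundant genes, had 396095 and 244630.0 in the sham libraries and 172442 and 218670.0 in the VSG libraries (log2 fold change -0.68, SE 0.35). The disaccharidases did not follow. Sis (sucrase-isomaltase) had 81162 and 96274 in the sham libraries and 58885 and 140706 in the VSG libraries and Mgam (maltase-glucoamylase) 67638 and 84062 in the sham libraries and 51099.7 and 96256 in the VSG libraries, and both overlapped (0.042 and -0.10). VSG library 1 carried much of the list: the median member stood at -0.61 there and at 0.21, 0.31 and 0.21 in VSG library 2 and the sham libraries, and without VSG library 1 the median log2 fold change was -0.033.

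Uptake and lipid genes showed no common direction. Of 28 nutrient uptake genes, 22 were tested, 10 higher and 12 lower (median -0.10). Slc6a19, the main transporter of neutral amino acids, had 24554 and 19344 in the sham libraries and 4747 and 10862 in the VSG libraries (log2 fold change -1.60, SE 0.48, adjusted p = 0.929), and the glutamate transporter Slc1a1 had 8847 and 9075 in the sham libraries and 4163 and 4250.4 in the VSG libraries (log2 fold change -1.09, SE 0.42). Neither overlapped. Slc5a1, the sodium-glucose transporter, had 38504 and 39884 in the sham libraries and 26273 and 51715 in the VSG libraries and overlapped. Of 29 lipid absorption genes in the table, 26 were tested, 13 in each direction (median 0.010). Apoa1, the main protein of high-density lipoprotein, differed by -0.58, Fabp2, a cytosolic fatty acid carrier, by -0.86 and Mttp, which loads lipid onto apolipoprotein B, by 0.41, none with an unadjusted p under 0.05. Of 49 xenobiotic genes, 35 were tested, 18 higher and 17 lower (median 0.0081). Abcb1a, the efflux pump P-glycoprotein, had 12596 and 21893 in the sham libraries and 7703 and 5180.3 in the VSG libraries (log2 fold change -1.39, SE 0.45). Aldh1a1, a retinaldehyde dehydrogenase, had 8278 and 8513 in the sham libraries and 2778 and 4375 in the VSG libraries (log2 fold change -1.27, SE 0.46). Both lay lower in each VSG library, whereas Ugt1a1, the bilirubin glucuronosyltransferase, lay higher at 5279 and 8246 after VSG and 3069 and 2930.2 after sham surgery (log2 fold change 1.14, SE 0.48).

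Stem cell genes leaned the other way. Of 27 in the table, 15 were tested and 12 were at 0 in some library, Lgr5 and Ascl2 among them. Of the 15, 11 were higher and 4 lower after VSG (median 0.92), and 5 lay higher without overlap, where 17.1% of all genes did, and 1 lower. Olfm4, Slc12a2 and Ephb2 had an unadjusted p under 0.05, all higher, where 2.24% of all genes did. Olfm4 (chromosome 14, 79984081 to 80023139, plus strand), a secreted glycoprotein of crypt base stem cells, had 7641 and 5352 after VSG and 795 and 2647 after sham surgery (log2 fold change 2.14, SE 0.67, adjusted p = 0.929). Ephb2 (chromosome 4, 136647539 to 136835988, minus strand), a crypt receptor that sorts cells along the crypt axis, had 867 and 2135 after VSG and 2.63 and 79.8 after sham surgery (log2 fold change 6.31, SE 1.84, adjusted p = 0.929), and its lowest library rests on a few reads. Slc12a2, a chloride cotransporter of crypt cells, had 7667 and 3545 after VSG and 168 and 2491 after sham surgery (log2 fold change 3.01, SE 1.16, adjusted p = 0.929). All 3 were higher in both VSG libraries. Rnf43, which removes Wnt receptors from the surface, had 767 and 2058 after VSG and 651 and 245 after sham surgery (log2 fold change 1.65, SE 0.95) and Hopx, a reserve stem cell marker, 738 and 546 after VSG and 349.6 and 132 after sham surgery (log2 fold change 1.56, SE 1.09), again with no overlap. Axin2, a Wnt target that restrains the pathway, lay lower at 1377 and 1409 after VSG and 3477 and 2816 after sham surgery (log2 fold change -1.17, SE 0.56). VSG library 1 set the median of the list: members stood at 0.92 there against -0.29 in VSG library 2 and -0.26 and -0.26 in the sham libraries, and without it the median log2 fold change was 0.039.

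Proliferation genes were mostly too sparse. Of 55, 20 were tested and 35 were at 0 in some library. Among the 20, 14 were higher and 6 lower (median 0.28), with none at an unadjusted p under 0.05. Hmgb2, a chromatin protein of dividing cells, had 6284 and 380.0 after VSG and 829 and 925 after sham surgery, so VSG library 1 stood above the other 3, and Pcna, the replication clamp, had 3439 and 997 after VSG and 1563 and 1489 after sham surgery (log2 fold change 0.28, SE 0.74). Without VSG library 1 the median of the list was -0.41, and without VSG library 2 it was 1.25. Of 28 Notch pathway genes, 16 were tested, 12 higher and 4 lower (median 0.56), and without sham library 1 they were 8 and 8 (median 0.18). Without VSG library 1 the median was 0.27. The ligand Dll1 had 1694 and 265 after VSG and 459 and 58.6 after sham surgery and the target Hes1 3161 and 154 after VSG and 311 and 441 after sham surgery, and both overlapped; Notch1, Jag1 and Dll4 were not among those tested. Of 36 Wnt receptors and transducers, 21 were tested, 9 higher and 12 lower (median -0.35). Tle3, a corepressor of Wnt targets, had 6938 and 5677 in the sham libraries and 3418 and 1297 in the VSG libraries with no overlap (log2 fold change -1.57, SE 0.59), and Ctnnb1, which encodes beta-catenin, differed by -0.24.

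Most secretory genes overlapped between the surgeries. Of 34 Paneth and antimicrobial genes in the table, 15 were tested, 9 higher and 6 lower (median 0.029). Lyz1, the Paneth cell lysozyme, had 25341 and 6648 after VSG and 403 and 6867 after sham surgery (log2 fold change 2.96, SE 1.22, adjusted p = 0.929), and Defa24, an alpha-defensin, had 23711 and 4356 after VSG and 653 and 7387 after sham surgery (log2 fold change 2.21, SE 1.16). For both, VSG library 1 was highest, sham library 1 lowest, and sham library 2 above VSG library 2, so the surgeries overlapped. Itln1, an intelectin of Paneth and goblet cells, had 11672 and 2730.4 after VSG and 559 and 4069 after sham surgery in the same order. Defensin copies are near-identical, so reads may be split among them. The Reg3 lectins of enterocytes spread widely: Reg3b had 203932 and 114209 after VSG and 430093 and 77706 after sham surgery and Reg3g 65151 and 33376 after VSG and 181024 and 11622 after sham surgery. Of the 15, 1 lay higher and 2 lower in both VSG libraries, shares below the 17.1% of all genes in each direction. The highest log2 fold change of the list was 6.10, in a member not named here. The oxidase Duox2, 1 of the lower 2, had 3094 and 1767 after VSG and 4369.6 and 8338 after sham surgery (log2 fold change -1.37, SE 0.56). Its maturation factor Duoxa2, the other, had 545 and 215 after VSG and 4364 and 1075 after sham surgery (log2 fold change -2.66, SE 0.97).

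Of 32 goblet and mucus genes in the table, 18 were tested, 13 higher and 5 lower (median 0.65). Muc2, the gel-forming mucin of the gut, had 12689.8 and 54069.5 after VSG and 1912 and 15046 after sham surgery (log2 fold change 2.29, SE 0.99, adjusted p = 0.929), and VSG library 1 was below sham library 2. Zg16, a lectin of the mucus layer, had 27175 and 22376 after VSG and 11677 and 21398 after sham surgery (log2 fold change 0.64, SE 0.42). Tff3, the trefoil peptide, had 19403 and 4276 after VSG and 3936 and 8445 after sham surgery and Fcgbp, a protein of the mucus gel, 87478 and 52278 after VSG and 42297 and 58792 after sham surgery. Both overlapped. The list's median member stood at 1.22 in VSG library 1 and at -0.38, -0.63 and 0.18 in the other 3, and without VSG library 1 the median log2 fold change turned to -0.23.

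Enteroendocrine genes were thinly measured, with 12 of the 40 in the table tested, 25 at 0 in some library and 3 at 0 in all. Of the 12, 9 were higher and 3 lower after VSG (median 0.44). Without sham library 2 they were 6 and 6 (median 0.025), and without VSG library 2 the median was 0.16. Chgb, a granin of secretory granules, had 2904 and 3672 after VSG and 738 and 971 after sham surgery (log2 fold change 1.95, SE 0.61, adjusted p = 0.929), with no overlap, and its log2 fold change was 1.75 to 2.14 without any 1 library. The related Chga had 1085 and 1263 after VSG and 1190.2 and 791 after sham surgery and overlapped (log2 fold change 0.27, SE 0.71). Hormone genes did not separate the surgeries. Gcg, which encodes GLP-1, had 1863 and 3276 after VSG and 2348 and 1186 after sham surgery (log2 fold change 0.57, SE 0.64, adjusted p = 0.95). Pyy, the peptide of the same distal cells, had 463 and 911 after VSG and 3056 and 247 after sham surgery, so sham library 1 was highest and sham library 2 lowest. Gip had 817 and 4112 after VSG and 2424 and 789.8 after sham surgery and Nts, neurotensin, 606 and 2328 after VSG and 489 and 1489 after sham surgery. Ddc, which makes serotonin from its precursor, had 1668 and 1851 after VSG and 1603 and 721 after sham surgery (log2 fold change 0.71, SE 0.70). Of the lineage factors only Insm1 and Foxa1 were tested, at -1.22 and 0.65. Among 25 tuft genes, 8 were tested, 4 in each direction, and the tuft kinase Dclk1 had 795 and 109 after VSG and 832 and 2747 after sham surgery (log2 fold change -2.35, SE 1.18).

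**Figure D4:**
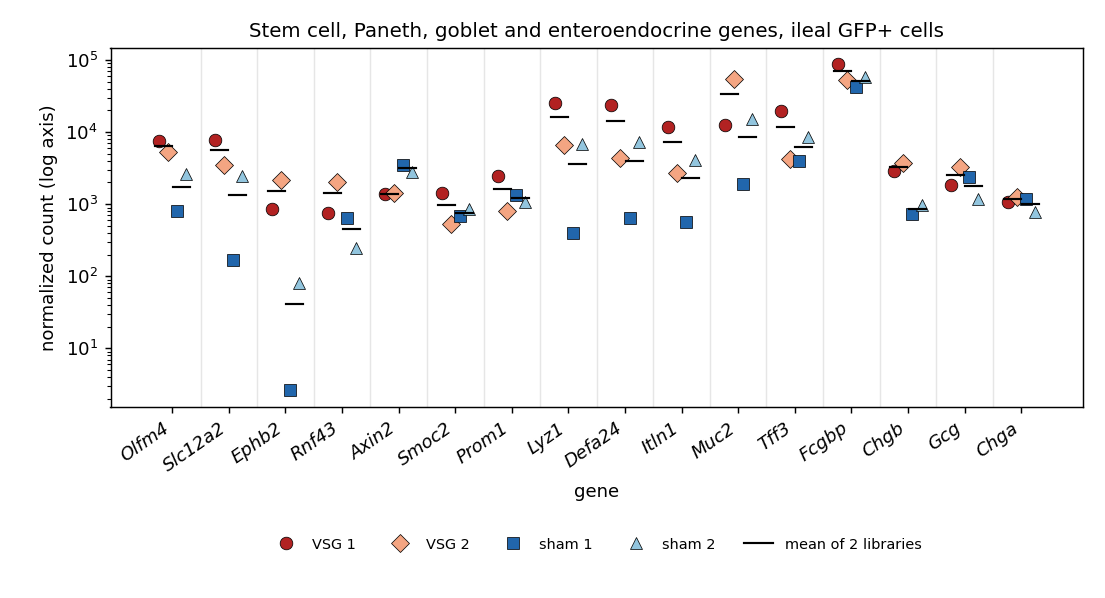
Normalized count per library (vertical log axis) of 7 stem cell genes, 3 Paneth, 3 goblet and 3 enteroendocrine genes in ileal GFP+ cells; each symbol is 1 library and each line the mean of 2. Olfm4, Slc12a2, Ephb2, Rnf43 and Chgb have both VSG symbols above both sham symbols, Axin2 has them below, and the Paneth genes have VSG library 1 at the top and sham library 1 at the bottom.

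Antigen presentation genes were lower on balance. Of 12 MHC class II genes, 8 were tested, 6 lower and 2 higher (median -0.57), and 4 lay lower with no overlap, where 17.1% of all genes did. H2-Aa, a class II chain, had 17072 and 11149 in the sham libraries and 4582 and 7964 in the VSG libraries (log2 fold change -1.19, SE 0.46, adjusted p = 0.929). Cd74, the invariant chain, had 68512 and 36976 in the sham libraries and 28399 and 34328 in the VSG libraries (log2 fold change -0.69, SE 0.40). Of 25 class I and antigen processing genes, 21 were tested, 14 lower and 7 higher (median -0.27). B2m, the light chain of class I, had 47942 and 25626 in the sham libraries and 17568 and 16609.9 in the VSG libraries (log2 fold change -1.04, SE 0.41, adjusted p = 0.929), and the heavy chain H2-K1 had 23078 and 16616 in the sham libraries and 13519.5 and 14864 in the VSG libraries (log2 fold change -0.47, SE 0.38). The sham libraries were the higher pair for each. Of 55 interferon-stimulated genes, 22 were tested, 14 lower and 8 higher (median -0.14), none with an unadjusted p under 0.05. Without sham library 1 the medians were -0.081, 0.16 and 0.37. The immune cell markers together stayed at or below 23.4 per 1000000 in each library, and their part in these values was not tested. Il15, a cytokine that sustains intraepithelial lymphocytes, had 1384 and 1384 in the sham libraries and 9.85 and 103 in the VSG libraries (log2 fold change -5.36, SE 1.5, adjusted p = 0.929). Its sham libraries were nearly equal, and VSG library 1 was the lowest. There 1 read was worth 0.605, so the lowest value rests on few reads.

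Ribosomal protein genes and the mitochondrial genome leaned in opposite directions. All 82 cytosolic ribosomal protein genes were tested, 69 higher and 13 lower (median 0.40), and 25 lay higher with no overlap, where 17.1% of all genes did. Rplp0, a stalk protein of the large subunit, had 33170.4 and 24187 after VSG and 17537 and 21985 after sham surgery (log2 fold change 0.53, SE 0.37). Rpl34 had 8104 and 7836 after VSG and 3972 and 3737 after sham surgery (log2 fold change 1.05, SE 0.43) and Rplp2 8925 and 6685 after VSG and 3969.9 and 3183 after sham surgery (log2 fold change 1.12, SE 0.45), with both VSG libraries higher. Together these genes took 4.28% and 2.89% of the VSG libraries and 2.58% and 2.51% of the sham libraries (exact permutation test, p = 0.333, the smallest possible), and without VSG library 1 their median log2 fold change was 0.053. Of 13 protein genes of the mitochondrial genome, 11 were tested and all 11 were lower (median -0.41), although with quantile normalization 4 of them were higher. The mitochondrial genome took 5.90% and 5.45% of the VSG libraries and 9.87% and 5.48% of the sham libraries (exact permutation p = 0.667). Sham library 1 stood apart, and without it the median was 0.069. mt-Atp6, a subunit of ATP synthase, had 460417 and 223580.0 in the sham libraries and 220521 and 140265 in the VSG libraries (log2 fold change -0.87, SE 0.43).

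Nuclear respiratory chain genes had no common direction, with 34 of 76 higher and 42 lower (median -0.080). Ndufa10, a complex I subunit, had 5032 and 9292 after VSG and 1732 and 1652 after sham surgery (log2 fold change 2.01, SE 0.53, adjusted p = 0.929), with no overlap. Atp5b, the catalytic subunit of ATP synthase, had 38312 and 26049 after VSG and 45469 and 44257 after sham surgery (log2 fold change -0.51, SE 0.35). Of 33 fatty acid oxidation and ketogenesis genes, 28 were tested, 20 higher and 8 lower (median 0.27). With no overlap, 7 lay higher and none lower, where 17.1% of all genes did in each direction. None of the 28 had an unadjusted p under 0.05. Hadha, a subunit of the trifunctional protein, had 8641 and 11738 after VSG and 8137 and 5994 after sham surgery (log2 fold change 0.53, SE 0.42), with no overlap. All 25 cholesterol synthesis genes were tested, 12 higher and 13 lower (median -0.057).

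Immediate early genes were higher after VSG in most members. Of 43 immediate early and stress genes, 34 were tested, 22 higher and 12 lower (median 0.63), and in 16 both VSG libraries lay above both sham libraries, against 17.1% of all genes, while 3 lay below. Egr1, an early transcription factor, had 11768 and 12830.0 after VSG and 5998 and 2422 after sham surgery (log2 fold change 1.69, SE 0.53, adjusted p = 0.929). Atf3, a stress-induced factor, had 8274 and 5841 after VSG and 2537 and 2017 after sham surgery (log2 fold change 1.62, SE 0.49, adjusted p = 0.929). Fos had 19680.3 and 20483 after VSG and 15175 and 10621 after sham surgery (log2 fold change 0.66, SE 0.38) and Jun, its partner in AP-1, 16849 and 17558 after VSG and 12677 and 6937 after sham surgery (log2 fold change 0.88, SE 0.43). Sham library 2 was the lowest for each of these 4. The Kruppel-like factors Klf4, Klf5 and Klf6 lay lower with no overlap, Klf4, a factor of differentiated epithelium, at 5158 and 4499 after VSG and 10592 and 7488 after sham surgery (log2 fold change -0.89, SE 0.43). The list's median member stood at 0.31 and 0.33 after VSG and -0.083 and -0.40 after sham surgery, and the median log2 fold change was 0.42 to 0.79 without any 1 library.

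Other stress pathways were mixed. Of 40 unfolded protein response genes, 36 were tested, 22 higher and 14 lower (median 0.19). The chaperone Hsp90b1 had 28366 and 21567 after VSG and 10022 and 16227 after sham surgery (log2 fold change 0.96, SE 0.40) and Hspa5, also called BiP, 23590.0 and 23169 after VSG and 19107 and 17954 after sham surgery (log2 fold change 0.34, SE 0.35), and both lay higher in each VSG library. Of 34 antioxidant genes, 30 were tested, 18 higher and 12 lower (median 0.20). The metallothioneins, which bind zinc and copper, were the members that stood highest together with Prdx3. Mt1 had 4088 and 3460.2 after VSG and 1321 and 893 after sham surgery (log2 fold change 1.79, SE 0.58, adjusted p = 0.929), and Mt2, its neighbor, had 2517 and 1749.7 after VSG and 268 and 725 after sham surgery (log2 fold change 2.25, SE 0.81). Prdx3, the mitochondrial peroxiredoxin, had 1034 and 2182 after VSG and 165 and 451 after sham surgery (log2 fold change 2.45, SE 0.95). Gpx2, the epithelial glutathione peroxidase, lay lower at 9129.7 and 6119 after VSG and 20732 and 14262 after sham surgery (log2 fold change -1.20, SE 0.42, adjusted p = 0.929). None of these 4 overlapped.

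Of 19 clock genes, 12 were tested, 5 higher and 7 lower (median -0.37), and 5 lay lower with no overlap, where 17.1% of all genes did. Without VSG library 1 they were 6 and 6 (median -0.036), and without sham library 2 the median was -0.084. Arntl, the BMAL1 activator of the clock, had 1000.3 and 1719 in the sham libraries and 370.2 and 248 in the VSG libraries (log2 fold change -2.11, SE 0.88, adjusted p = 0.929). Dbp and Tef, output factors of the clock, were lower in both VSG libraries (-1.04 and -1.54), while the repressor Nr1d1 had 5512 and 5159 in the sham libraries and 4663 and 4338 in the VSG libraries (log2 fold change -0.25, SE 0.44) and Per1 was at 1.19 with overlap. Hours of collection per mouse are not in the sources used here. All 36 junction and cytoskeleton genes were tested, 18 in each direction (median -0.025). Cldn23, a tight junction claudin, had 2497 and 3023 after VSG and 659 and 809.7 after sham surgery (log2 fold change 1.91, SE 0.63, adjusted p = 0.929), and the epithelial keratin Krt8, among the abundant genes, had 133263 and 88308 after VSG and 124240.0 and 118103 after sham surgery (log2 fold change -0.16, SE 0.34).

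**Figure D5:**
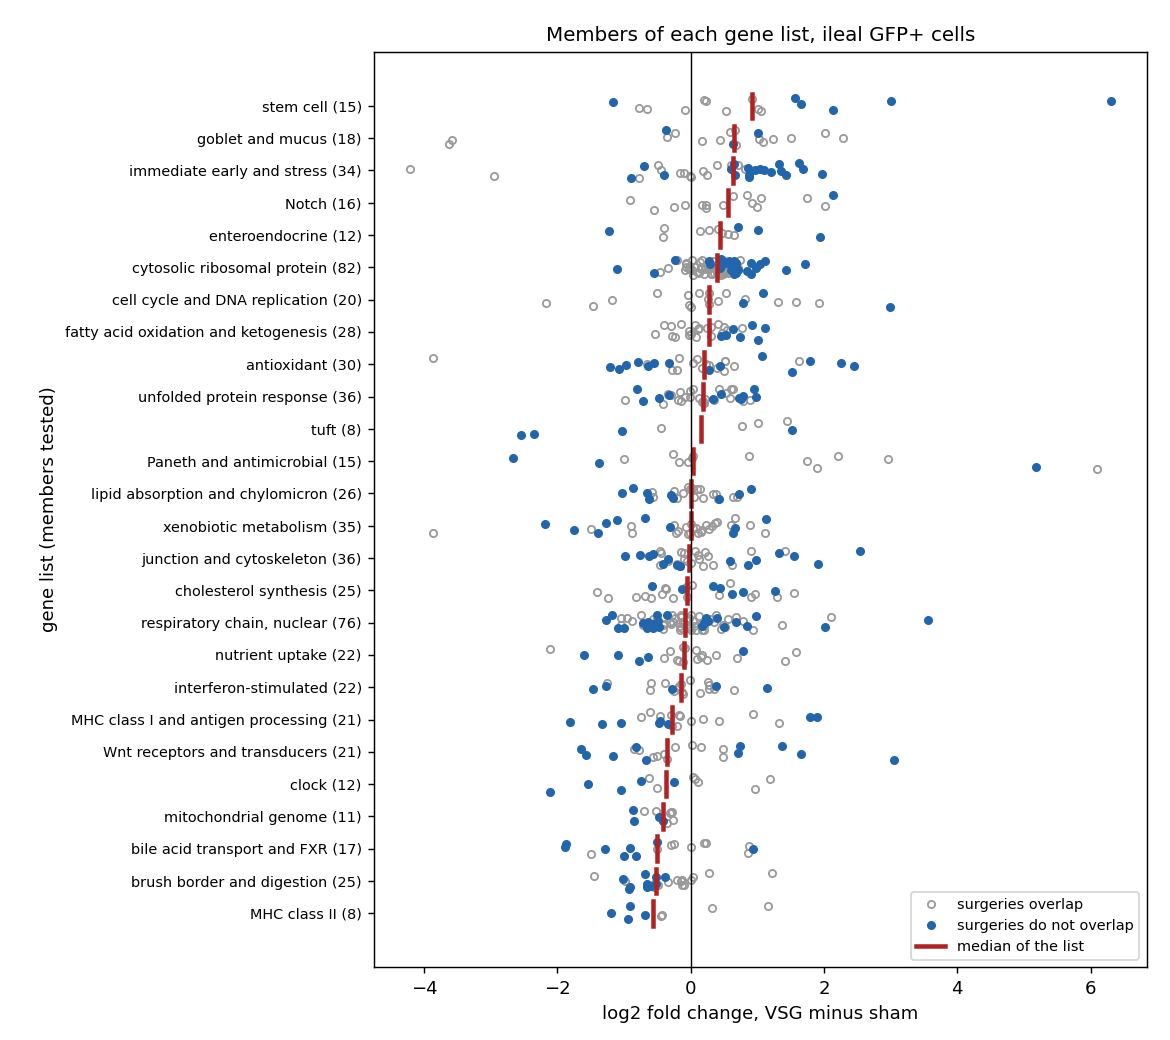
Log2 fold change (horizontal axis, VSG minus sham) of the tested members of 26 gene lists (vertical axis, with the number tested); blue points are members whose VSG and sham libraries do not overlap, and red bars are list medians. Medians run from -0.57 for MHC class II and -0.52 for brush border genes to 0.65 for goblet genes and 0.92 for stem cell genes.

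The genes with the smallest unadjusted p included several of broad cellular function. Among those higher after VSG, Ap1ar, a regulator of the AP-1 adaptor in vesicle traffic, had 8856 and 9510.0 after VSG and 1010.3 and 1142 after sham surgery (log2 fold change 3.09, SE 0.49, adjusted p = 0.541). Hmgn1, a nucleosome-binding protein, had 2285 and 10897 after VSG and 53.7 and 26.1 after sham surgery (log2 fold change 7.02, SE 1.15). In sham libraries 1 and 2, 1 read was worth 1.16 and 2.07, so its sham values rest on few reads. Hnrnph1, a splicing factor, had 5329.9 and 47819 after VSG and 407 and 468 after sham surgery (log2 fold change 5.19, SE 0.95). In Hmgn1, Hnrnph1 and Ran, the GTPase of nuclear transport, VSG library 2 stood several times above VSG library 1. Cct7, a chaperonin subunit, had 5740.2 and 5705 after VSG and 855 and 562 after sham surgery (log2 fold change 3.04, SE 0.58), and Sp1, a transcription factor of GC-rich promoters, 4734 and 7809 after VSG and 388 and 810.2 after sham surgery (log2 fold change 3.44, SE 0.66). The rule that named these genes required every VSG library to lie above both sham libraries, so their separation is no result. For Cct7 the VSG libraries were nearly equal, which a ranking by p favors. Vps35, of the retromer that recycles receptors, was at 5574 and 6628 after VSG and 906 and 1443 after sham surgery (log2 fold change 2.41, SE 0.54). Fam107b, Ivns1abp, Med12, Golga1, Glod4, Exosc10 and Ran followed, with log2 fold changes from 1.88 to 5.36. The sham values of Exosc10, 22.9 and 39.5, also rest on few reads.

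Among those lower after VSG, Crebbp (chromosome 16, 4081328 to 4213997, minus strand), the acetyltransferase CBP, had 4211 and 6516 in the sham libraries and 483 and 391 in the VSG libraries (log2 fold change -3.59, SE 0.64, adjusted p = 0.66). Tmigd1, an adhesion protein of mature enterocytes, had 26803 and 31296 in the sham libraries and 8144 and 6887 in the VSG libraries (log2 fold change -1.95, SE 0.37), and Pmp22, a membrane protein named for myelin, 7756 and 17253 in the sham libraries and 2074 and 1755 in the VSG libraries (log2 fold change -2.60, SE 0.53). The libraries of each surgery lay close for Tmigd1, which a ranking by p favors. These lower genes were likewise picked for libraries that do not overlap. Pla2g4c, a phospholipase A2, had 15013 and 14681 in the sham libraries and 2467 and 375 in the VSG libraries (log2 fold change -3.95, SE 0.83), and Upp1, which splits uridine, 7487 and 4015 in the sham libraries and 1171 and 301 in the VSG libraries (log2 fold change -3.21, SE 0.79). VSG library 2 was the lowest for both. Beside Fabp6, Sprr2a2, Ankib1, Atn1, Prss30, Tns4, Copg1, Il15 and Ppp6r1 followed, with log2 fold changes from -5.36 to -1.78.

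Sprr2a2, a small proline-rich protein that intestinal epithelium makes in response to microbes, was among the most abundant of these, with 191795 and 217867 in the sham libraries and 79509.8 and 29802 in the VSG libraries (log2 fold change -2.07, SE 0.47, adjusted p = 0.929). Its copy Sprr2a3 had 5026 and 6192 in the sham libraries and 2087 and 885 in the VSG libraries (log2 fold change -2.04, SE 0.60), at a similar log2 fold change. Reads cannot be assigned securely among the Sprr2a copies, and their start regions show how alike they are. The RefSeq window of Sprr2a2 on GRCm38.p6 is identical to that of Sprr2a1 over all 300 bases, and 272 bases of the Sprr2a3 window match it with no difference. It is given once, with no motif marked.
Sprr2a2 (chr3:92250397-92250696, plus strand): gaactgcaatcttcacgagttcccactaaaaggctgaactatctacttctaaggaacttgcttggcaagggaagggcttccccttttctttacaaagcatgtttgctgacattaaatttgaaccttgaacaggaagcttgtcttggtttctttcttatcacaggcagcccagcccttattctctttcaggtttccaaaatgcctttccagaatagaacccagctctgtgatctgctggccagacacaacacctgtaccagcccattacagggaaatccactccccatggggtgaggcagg
The counted Sprr2a2 is annotated from 92215920 to 92256724 on chromosome 3. That span starts next to the Sprr2a1 window, and the window shown lies inside it, not at its start. The values of these genes may hold reads of any of the copies.

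The ileal difference was set beside the other segments, with 4 VSG and 2 sham libraries each, in 1 model of 16 libraries with the mouse as a block. The table of each segment was normalized separately, so only differences within a segment enter. Spread within groups was widest in the ileum, with a median SD of 0.72 on the log2 scale, where the jejunum had 0.63 and the duodenum 0.46. Jejunal VSG library 1 stood apart with the markers of the ileum, at 5884 per 1000000 for Fabp6 where the other 5 jejunal libraries had at most 6.64, and at 9.63 per 1000000 for Gata4, where they had at least 118. Of 7131 genes above 0 in all libraries, 265 (3.72%) were called for an ileal effect that differed from the mean of the other segments, 162 higher and 103 lower, and 201 without that jejunal library. With a separate spread for each segment 0 were called, with 368 at an unadjusted p under 0.05. Leaving out ileal VSG library 2 gave 60 calls, and leaving out any of the other 3 ileal libraries gave 954 to 1151. The calls were therefore made only where the ileum shared the spread of the other segments, and no gene is described as particular to the ileum.

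Side by side with the ileum, several differences had the same sign elsewhere and others did not. Of the 4 ileal mice, 3 also gave duodenal and jejunal libraries. Slc6a19 was at -1.60 in the ileum, -1.51 in the duodenum and -0.91 in jejunum, and Ggt1 at -1.02, -1.44 and -1.5. Aldh1a1 was at -1.27, -2.48 and -2.33. For Duox2 the values were -1.37, 1.41 and 1.86, and for Arntl -2.11, 0.86 and 1.57. Muc2 was at 2.29, 0.74 and 1.30. Aacs was at 5.91, -0.30 and 0.23. The jejunal values include the library with ileal markers.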

How the data were processed

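RNA was sequenced from GFP+ cells sorted from the ileum, duodenum and jejunum. According to the submitters' processing notes and the paper, reads were aligned to mm10 with STAR 2.5.3a, quantified with Salmon 0.6.0 and normalized with DESeq2 within each segment. The authors deposited the resulting signal per gene and library, called normalized counts here; only 40.8% to 49.0% of the values above 0 in a library are whole reads (within 0.01) when divided by the worth of 1 read, so no count test was run. Implied reads divide a library's total by that worth. The tables of the authors' own comparisons hold means, log2 fold changes, standard errors and p-values and were not used.

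Genes above 0 in all 4 ileal libraries with a mean above 50 were tested as log2(normalized count + 1) with limma 3.58.1 (trend) in R 4.3.3, 2 VSG against 2 sham libraries, with Benjamini-Hochberg adjustment. The pseudocount of 1 understates the change of low genes. The difference between segments used limma with the mouse, read from the code in the labels, as a random block. Composition used two-sided exact permutation tests. The steps were tested on simulated data.

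The members and the 29 gene lists were chosen with earlier results of these data known. Named genes are the called genes and those of lowest p with non-overlapping libraries and a mean above 200 (15 in each direction), the 10 most abundant, and from each list up to 4 most abundant members and each with an unadjusted p under 0.05 and no overlap; cell type markers and other list members are named for their role, the latter with their values seen. Predicted genes were left out except Gm10925, and a few genes that the rule names are not reported here. Replicate numbers follow accession order. Positions are from GENCODE M21, which held 48058 of the identifiers. Alternatives were pseudocounts of 0.5 and 10, other filters, equal totals, quantile normalization, median-of-ratios scaling, limma without trend or with robust variances, an adjusted p under 0.05, no mouse block, segment weights and leaving out each library. Figures were drawn with matplotlib 3.10.9, and scipy 1.17.1, pandas 2.3.3 and numpy 2.4.6 under Python 3.11.15 made the tables.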

Additional observations from a re-analysis of the deposited data

Results flagged for a closer look

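Among the genes named by the rule or carrying a call, 28 of the 163 tested had a VSG effect in the ileum that differed from the mean of the duodenal and jejunal effects at an adjusted p under 0.2 (limma over 16 libraries, 0.00412 to 0.188), 17 higher and 11 lower in the ileum. Over all genes 265 of 7131 (3.72%) did. Many of these genes were named for their ileal difference, so their count is no evidence that they are particular to the ileum. Differences of effects on the log2 scale were, for the higher genes, Aacs 5.93, Hmgn1 6.43, Hnrnph1 4.19, Cct7 3.43, Sp1 4.70, Vps35 2.29, Fam107b 4.38, Med12 2.03, Golga1 3.37, Glod4 2.79, Exosc10 5.12, Ephb2 6.19, Ndufa10 2.23, Ndufb2 3.57, Ugt1a1 2.16, Prdx3 2.41 and Gm10925 5.96. For the lower genes they were Crebbp -4.02, Ankib1 -2.83, Upp1 -3.22, Atn1 -4.25, Copg1 -2.31, Il15 -5.95, Ppp6r1 -1.76, Duox2 -3.00, Tle3 -2.48, Arntl -3.32 and Gpx2 -1.86. Without jejunal VSG library 1, whose regional markers are those of the ileum, 26 of the 28 passed. With a separate spread for each segment none of the 28 did (adjusted p = 0.249 to 0.967). Outliers were not sought, since groups of 2 are too small.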

How the results depend on the processing

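The count of 2 called genes became 0 over genes with zeros allowed and a mean above 10 or 50, 0 in limma without trend, 0 at an adjusted p under 0.05, 1 with no minimum mean and 0 to 1 without any 1 library; it stayed at 2 with other pseudocounts, scalings, robust variances or a higher minimum mean. At an unadjusted p under 0.05 stood 335 genes, 569 with zeros allowed and a mean above 50, 189 with a mean above 1000 (chosen after seeing the data) and 171 (VSG library 2) to 533 (sham library 1) without any 1 library. The 265 calls of the difference between segments became 0 with segment weights, which were added after seeing the data, and 60 to 1151 without any 1 ileal library. Apart from leaving out a library, some list medians moved from the main fit by at least their spread between replicates. With a mean above 1000, cholesterol synthesis moved from -0.057 to 0.18, clock from -0.37 to 0.050 and junction genes from -0.025 to -0.060. With quantile normalization, bile acid transport moved from -0.50 to -0.21 and junction genes to 0.17. With equal totals, junction genes moved to 0.10. Without any 1 library, medians ran 0.039 to 1.03 (stem cell), -0.41 to 1.25 (cell cycle and DNA replication), 0.053 to 0.65 (cytosolic ribosomal protein), -0.77 to 0.069 (mitochondrial genome), -0.50 to 0.28 (respiratory chain, nuclear), -0.67 to -0.033 (brush border and digestion), -0.47 to 0.31 (nutrient uptake), -0.41 to 0.45 (lipid absorption and chylomicron), 0.081 to 0.39 (fatty acid oxidation and ketogenesis), -0.043 to 0.14 (cholesterol synthesis), -0.72 to -0.23 (bile acid transport and FXR), -0.29 to 0.32 (xenobiotic metabolism), 0.025 to 0.75 (enteroendocrine), -0.23 to 1.44 (goblet and mucus), -0.22 to 0.51 (Paneth and antimicrobial), -0.19 to 0.51 (tuft), -0.66 to 0.16 (MHC class I and antigen processing), -1.10 to -0.081 (MHC class II), -0.68 to 0.37 (interferon-stimulated), -0.089 to 0.28 (unfolded protein response), 0.42 to 0.79 (immediate early and stress), 0.18 to 0.63 (Notch), -0.68 to 0.44 (Wnt receptors and transducers), -0.10 to 0.13 (junction and cytoskeleton), -0.64 to -0.036 (clock) and -0.10 to 0.33 (antioxidant). The cause of these changes was not tested. With equal totals the medians of nuclear respiratory chain, nutrient uptake, cholesterol synthesis and junction genes were above 0. Of the 626 list members and named genes with an unadjusted p of 0.05 or more, 340 changed sign under at least 1 alternative. Where the count fell to 0, both Aacs and Gm10925 lost their calls, and with no minimum mean Aacs did (adjusted p = 0.223); over the alternatives the adjusted p of Aacs ran from 0.104 to 1.000 and that of Gm10925 from 0.0385 to 1.000. No paired analysis was possible because the ileal labels carry no replicate numbers and VSG and sham libraries come from different mice. The 2 libraries a group and the 10.9 M implied reads of sham library 2 limit what could be detected.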
